A study of Mus musculus with 12 samples.

Results

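Nat8 and the Acnat genes encode acyltransferases, enzymes that move an acetyl or longer acyl group onto an amino acid or a conjugate of one. The set described here holds 10 genes, chosen by symbol among the 27412 gene rows of the deposited table: Nat8, Nat8l, Nat8f1, Nat8f2, Nat8f3, Nat8f5, Nat8f6 and Nat8f7 of the Nat8 family, and Acnat1 and Acnat2. The set was picked with the difference between the genotypes already known, in which Nat8f5 and Acnat2 were lower with the transgene. For these 10 genes the genotype values are therefore a description, given with their spread and with no p-value.

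The HIF2aM3 group held 3 male mice (17-51, 17-53 and 17-56) that carry the HIF2aM3 transgene, and it was set against 3 male wild-type (WT) C57BL/6 mice. HIF2aM3 is a mutant form of HIF2α, a hypoxia-responsive transcription factor, placed under the promoter of γ-glutamyl transferase (GGT), a brush border enzyme of the proximal tubule. All animals were kept under standard conditions with no treatment, and their ages are not stated in the labels. RNA came from a thin slice of outer cortex of both kidneys of each animal, which gave 12 libraries. The 3 HIF2aM3 animals share the prefix 17, which the labels do not explain, so effects of a line and of the transgene cannot be told apart. Counts of both kidneys were summed per animal, and the animal is the replicate. Between 24032148 and 43499743 reads were counted per library, apart from 4161829 in the shallow library, kidney 2 of HIF2aM3 17-51. Epas1, the mouse gene of HIF2α, had 267 ± 16.7 CPM (read counts scaled to library size, SD, n = 3) in HIF2aM3 and 204 ± 30.9 CPM in WT animals (edgeR adjusted p = 0.0881), and the labels do not tell whether reads of the transgene count under it.

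Nat8 is an N-acetyltransferase of the endoplasmic reticulum, best known for the last step of mercapturic acid formation, in which a cysteine S-conjugate left over from glutathione is acetylated and can then leave with the urine. This route is concentrated in the proximal tubule, where GGT and dipeptidases first trim glutathione conjugates to cysteine conjugates. The Nat8f genes are paralogs in the same cluster, once called camello-like genes, and their substrates are less well defined. Nat8l is the aspartate N-acetyltransferase that makes N-acetylaspartate, chiefly in neurons. Acnat1 and Acnat2 are relatives of Baat, the bile acid conjugating enzyme, and mouse Acnat1 is a peroxisomal enzyme that joins fatty acids to taurine.

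The bases just before the transcription start are shown because paralogs of 1 cluster had unlike genotype values and can be set side by side. RefSeq windows on GRCm38.p6, from 250 bases before to 50 after the start, were found for 9 of the 10 genes (11 windows). The last 150 bases before the start follow for 8 genes, all on the minus strand, written 5′ to 3′ along the gene. Capitals mark matches on either strand to ACGTG or GCGTG, the core of the HIF binding motif, and to 2 words that the Nat8f windows were seen to share after they had been read, AGCCAAT and TTTATNATT. No 2 matches overlapped.
Nat8f5: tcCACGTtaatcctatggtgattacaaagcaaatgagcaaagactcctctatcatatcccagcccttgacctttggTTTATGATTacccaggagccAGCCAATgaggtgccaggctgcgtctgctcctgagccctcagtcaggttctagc
Nat8f6: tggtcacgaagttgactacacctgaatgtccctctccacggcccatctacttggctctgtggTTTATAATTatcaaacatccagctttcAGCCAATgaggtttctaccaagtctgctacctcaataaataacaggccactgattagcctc
Nat8f7: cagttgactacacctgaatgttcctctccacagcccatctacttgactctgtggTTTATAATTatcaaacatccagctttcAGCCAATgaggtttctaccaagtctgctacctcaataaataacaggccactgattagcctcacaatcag
Nat8f2: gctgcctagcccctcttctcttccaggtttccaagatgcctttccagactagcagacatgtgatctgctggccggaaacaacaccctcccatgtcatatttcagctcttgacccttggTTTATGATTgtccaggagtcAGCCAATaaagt
Nat8: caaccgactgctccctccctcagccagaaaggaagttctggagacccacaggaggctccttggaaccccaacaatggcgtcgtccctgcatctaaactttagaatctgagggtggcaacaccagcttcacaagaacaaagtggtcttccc
Nat8f1: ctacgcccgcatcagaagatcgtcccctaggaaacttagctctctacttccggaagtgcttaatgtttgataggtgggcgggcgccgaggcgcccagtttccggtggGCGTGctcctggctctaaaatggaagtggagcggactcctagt
Acnat2: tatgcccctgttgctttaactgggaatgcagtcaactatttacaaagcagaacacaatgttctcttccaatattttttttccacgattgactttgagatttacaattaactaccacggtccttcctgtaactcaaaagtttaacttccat
Acnat1: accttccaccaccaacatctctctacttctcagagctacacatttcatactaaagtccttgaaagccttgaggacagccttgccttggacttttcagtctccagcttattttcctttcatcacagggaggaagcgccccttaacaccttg

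The stretches lie at chr6:85820973-85821122 for Nat8f5, chr6:85809878-85810027 for Nat8f6, chr6:85708562-85708711 for Nat8f7, chr6:85869138-85869287 for Nat8f2, chr6:85836858-85837007 for Nat8 (the first of its windows), chr6:85915633-85915782 for Nat8f1, chr4:49408152-49408301 for Acnat2 (the first of its windows) and chr4:49451110-49451259 for Acnat1. Nat8f5, Nat8f6, Nat8f7 and Nat8f2 held both AGCCAAT and TTTATNATT on the strand of the gene. The words stood 11 bases apart in Nat8f5 and in Nat8f2, and 18 bases apart in Nat8f6 and in Nat8f7. Over all 32851 windows of the same length, 7.86% held AGCCAAT, 1.84% held TTTATNATT and 32 windows (0.0974%) held both. Both words were taken from the Nat8f windows themselves, which belong to paralogs, so these shares are background and no test. Nat8f6 and Nat8f7 are near copies here, with an identical run of 146 bases, and the first window of Nat8 shared a run of 100 bases with that of Nat8f3. The longest run that Nat8f5 shared with Nat8f6, Nat8f7 or Nat8f2 was 13 bases. Identical runs end at any changed base, so they understate likeness such as that of Nat8f5 and Nat8f2 around both words. The windows of Nat8, Nat8f3, Acnat1 and Acnat2 held none of the 4 motifs. A core HIF motif was found in Nat8f5 (148 bases before the start), Nat8f7, Nat8f1 and Nat8f2, and in 43.8% of all windows. Whether HIF2α binds at these matches, and whether that bears on the genotype values, was not tested. A match describes letters only.

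How far reads can be told apart differs between these genes. In the GENCODE M21 annotation, Nat8f5 and Nat8f6 share 135 exon bases on the same strand, which is 13.7% of the exon bases of Nat8f5 and 7.95% of those of Nat8f6. Of all stretches of 50 bases in the transcripts of a gene, 82.3% in Nat8f7, 68.0% in Nat8f6 and 52.1% in Nat8f3 also occur in another gene, so values of these 3 are uncertain. The share was 24.0% in Acnat1 (522 of 2174 stretches, all shared with Acnat2, where they are 522 of 1740), 17.9% in Nat8f2 (shared with Nat8f4), 14.6% in Nat8f1, 9.29% in Nat8f5, 5.68% in Nat8 and 0 in Nat8l. Nat8f1 overlaps Tprkb, which lies on the opposite strand, over 478 bases or 35.5% of its exon bases, and Acnat2 overlaps a pseudogene on the opposite strand over 29 bases. The labels do not tell whether counting used strand, so reads of such pairs may be mixed.

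Of the 10 genes, 9 had a negative log2 fold change (HIF2aM3 over WT), with a median of -0.42 against a median of 0.005 over all 19564 genes tested. All 10 genes were tested. The 4 genes Nat8f5, Acnat2, Nat8f6 and Nat8 were past an adjusted p of 0.05, all lower, where 1.82% of all genes tested were called lower, 1.93% higher and 3.75% in all. In 6 genes (Nat8, Nat8f3, Nat8f5, Nat8f6, Nat8f7 and Acnat2) all 3 HIF2aM3 animals lay below all 3 WT animals, a pattern found in 16.5% of all genes. These counts used the comparison by which the genes were picked, so nothing is read from them. With 1 animal left out, calls were lost: the number past the threshold among the 10 was 0 without HIF2aM3 17-53, 1 (Acnat2) without HIF2aM3 17-51 and 2 (Nat8f5 and Acnat2) without WT 1, and the number over all genes, 733 with all animals, ran from 11 without HIF2aM3 17-53 to 1549 without WT 2. The log2 fold changes themselves moved less, being -1.61 for Nat8f5, -0.94 for Acnat2, -0.76 for Nat8f6 and -0.38 for Nat8 without HIF2aM3 17-53. Without the shallow library 3 of the 10 were past the threshold (Nat8 was not), and the log2 fold changes of Nat8f5, Acnat2, Nat8f6 and Nat8 were -1.64, -1.01, -0.82 and -0.36.

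**Figure D1:**
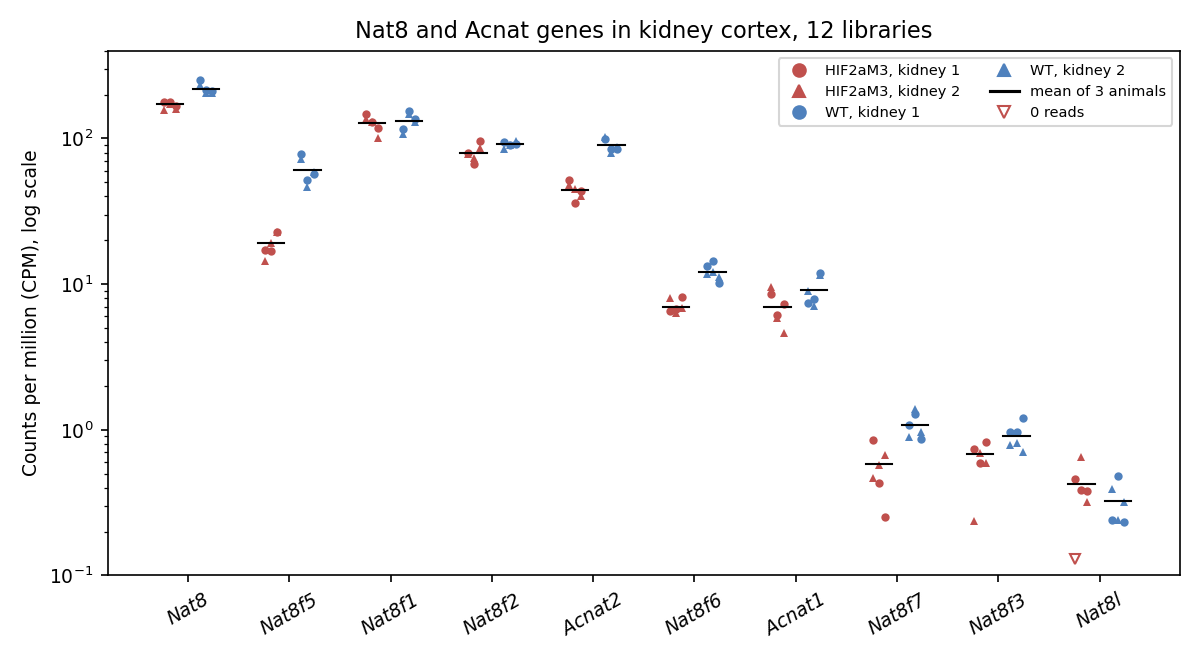
CPM (log scale) of the 10 genes in 12 libraries, HIF2aM3 left of WT for each gene, with circles for kidney 1, triangles for kidney 2, a line at the mean of 3 animals and an open triangle for 0 reads, drawn near the foot of the axis. Libraries of Nat8f5 sit between 14.3 and 22.9 CPM in HIF2aM3 and between 46.1 and 78.0 CPM in WT, while those of Nat8f1 overlap.

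Nat8f5 showed the largest difference of the 10. It had 16.9, 17.96 and 22.8 CPM in the HIF2aM3 animals 17-51, 17-53 and 17-56, against 74.8, 49.3 and 57.8 CPM in WT 1, 2 and 3. The highest HIF2aM3 animal was below the lowest WT animal by a wide gap, and WT 1 stood above the other WT animals. The means were 19.2 ± 3.13 CPM in HIF2aM3 and 60.6 ± 13 CPM in WT (SD, n = 3 each), a log2 fold change of -1.65 ± 0.18 (SE), which left 31.8% of the WT level. By library, Nat8f5 ran from 14.3 over a median of 18.2 to 22.9 CPM in the 6 HIF2aM3 libraries. In the 6 WT libraries the same values were 46.1, 58.0 and 78.0 CPM. The libraries did not overlap by genotype, but they come from both kidneys of the same animals and add no replicates. The value rested on 3386 reads in HIF2aM3 and 10794 in WT animals. In bulk tissue such as this, fewer cells of a type and less RNA per cell cannot be told apart.

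Nat8f6, which borders Nat8f5 and shares exon bases with it, was lower as well, by less. It had 6.77, 6.50 and 7.59 CPM in the HIF2aM3 animals and 12.5, 13.4 and 10.7 CPM in the WT animals, with means of 6.95 ± 0.570 CPM in HIF2aM3 and 12.2 ± 1.41 CPM in WT (SD, n = 3 each). Its log2 fold change was -0.81 ± 0.11 (SE), and neither animals nor libraries overlapped. The 135 shared exon bases lie on the same strand, and 68.0% of the 50-base stretches of Nat8f6 occur in other genes. How much of the Nat8f6 difference came from reads of Nat8f5 or of other genes was not tested, and the same limit holds for the ratio below. With the counts of Nat8f5 and Nat8f6 summed, the log2 fold change was -1.475. That value does not depend on how counted reads were split between these genes, but reads of other genes may remain in it. The ratio of Nat8f5 to Nat8f6 in RPKM (reads scaled to transcript length and depth) was 5.44, 7.02 and 7.68 in the HIF2aM3 animals and 15.1, 9.34 and 13.8 in the WT animals, so it was lower in every HIF2aM3 animal than in any WT animal. Nat8f7, at the limit of what these libraries measure, had 26, 43 and 25 reads in the HIF2aM3 animals and 50, 89 and 59 in the WT animals, or 0.580 ± 0.193 CPM in HIF2aM3 and 1.08 ± 0.224 CPM in WT (SD, n = 3 each), with a log2 fold change of -0.95 ± 0.28 (SE). Its animals did not overlap, but most of its sequence is shared with Nat8f3 and Nat8f6. Nat8f3 had 0.677, 0.640 and 0.721 CPM in the HIF2aM3 animals and 0.871, 0.8995 and 0.930 CPM in the WT animals, a log2 fold change of -0.41 ± 0.17 (SE), its animals apart by genotype and its libraries overlapping.

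Nat8, the mercapturic acid enzyme, was the most abundant of the 10 and differed by a smaller factor. It had 174, 175 and 164 CPM in the HIF2aM3 animals and 243, 211 and 207 CPM in the WT animals. The HIF2aM3 animals lay close together, and all were below the lowest WT animal. The means were 171 ± 5.92 CPM in HIF2aM3 and 220 ± 19.8 CPM in WT (SD, n = 3 each), a log2 fold change of -0.36 ± 0.07 (SE), or 77.7% of the WT level. Over the 6 fits that left out 1 animal, the log2 fold change of Nat8 ran from -0.41 to -0.30. It was past the threshold in 1 of them, the fit without WT 2. Since the genes were picked with this comparison known, nothing is read from that call.

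The remaining cluster members overlapped between the genotypes. Nat8f1 had 145, 129 and 110 CPM in the HIF2aM3 animals and 111, 152 and 132 CPM in the WT animals, and its log2 fold change was -0.04 ± 0.14 (SE), the sign of which turned without HIF2aM3 17-56 (0.06) or without WT 2 (0.07). Nat8f2 had 79.7, 69.3 and 91.0 CPM in the HIF2aM3 animals and 89.6, 89.9 and 93.6 CPM in the WT animals, a log2 fold change of -0.19 ± 0.09 (SE), with HIF2aM3 17-56 inside the range of WT. Nat8f4, a cluster gene outside the 10 chosen, had 11.7 ± 0.992 CPM in HIF2aM3 and 10.5 ± 0.761 CPM in WT animals (SD, n = 3 each), a log2 fold change of 0.15 ± 0.09 (SE). The pseudogene Nat8b-ps had 0.981 ± 0.0899 CPM in HIF2aM3 and 1.32 ± 0.313 CPM in WT animals (SD, n = 3 each), with overlap. Nat8l, which lies outside the cluster, was the only 1 of the 10 with a positive log2 fold change, 0.40 ± 0.26 (SE), on 13, 44 and 20 reads in the HIF2aM3 animals and 16, 25 and 18 reads in the WT animals. The shallow library held 0 Nat8l reads.

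Acnat2 had 51.4, 40.2 and 41.8 CPM in the HIF2aM3 animals, against 100.2, 82.8 and 85.4 CPM in the WT animals. The highest HIF2aM3 animal was far below the lowest WT animal. The means were 44.5 ± 6.03 CPM in HIF2aM3 and 89.5 ± 9.39 CPM in WT (SD, n = 3 each), a log2 fold change of -1.01 ± 0.11 (SE), or 49.6% of the WT level. By library it ran from 36.0 over a median of 44.3 to 51.9 CPM in HIF2aM3, against 79.8, 86.1 and 102.3 CPM in WT. Acnat1, its near neighbour, had 8.68, 5.95 and 6.12 CPM in the HIF2aM3 animals and 8.21, 7.56 and 11.7 CPM in the WT animals, with HIF2aM3 17-51 inside the WT range. Its log2 fold change was -0.42 ± 0.21 (SE). The ratio of Acnat2 to Acnat1 in RPKM was 4.96, 6.17 and 6.39 in the HIF2aM3 animals and 11.1, 10.01 and 6.63 in the WT animals, so it was lower in every HIF2aM3 animal than in any WT animal, by little between HIF2aM3 17-56 and WT 3. In the authors' deposited table, the log2 fold changes were -1.64 for Nat8f5, -0.99 for Acnat2, -0.85 for Nat8f7, -0.74 for Nat8f6 and -0.35 for Nat8. For the other members they were -0.44 for Nat8f3, -0.35 for Acnat1, -0.16 for Nat8f2, -0.03 for Nat8f1 and 0.31 for Nat8l.

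Levels can be set against each other per length only, in RPKM. In HIF2aM3 animals Nat8 was first at 137.3 ± 4.56 RPKM (SD, n = 3), followed by Nat8f1 at 37.5 ± 4.75, Nat8f2 at 22.1 ± 2.96 and Nat8f5 at 17.6 ± 3.35 RPKM, then Acnat2 at 9.25 ± 1.08, Nat8f6 at 2.63 ± 0.207 and Acnat1 at 1.62 ± 0.428 RPKM. In WT animals the order was Nat8 at 175.5 ± 14.8, Nat8f5 at 55.0 ± 11.03, Nat8f1 at 38.3 ± 6.71, Nat8f2 at 24.7 ± 0.614, Acnat2 at 18.4 ± 1.74, Nat8f6 at 4.37 ± 0.594 and Acnat1 at 2.06 ± 0.466 RPKM (SD, n = 3). Nat8f5 thus stood 4th in HIF2aM3 and 2nd in WT animals, and its range overlapped that of Nat8f2 in HIF2aM3 animals. No other 2 neighbours named in either order overlapped. Nat8f7, Nat8f3 and Nat8l were the lowest in both genotypes, at 0.306, 0.195 and 0.0601 RPKM in HIF2aM3 and 0.550, 0.265 and 0.0483 RPKM in WT animals.

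**Figure D2:**
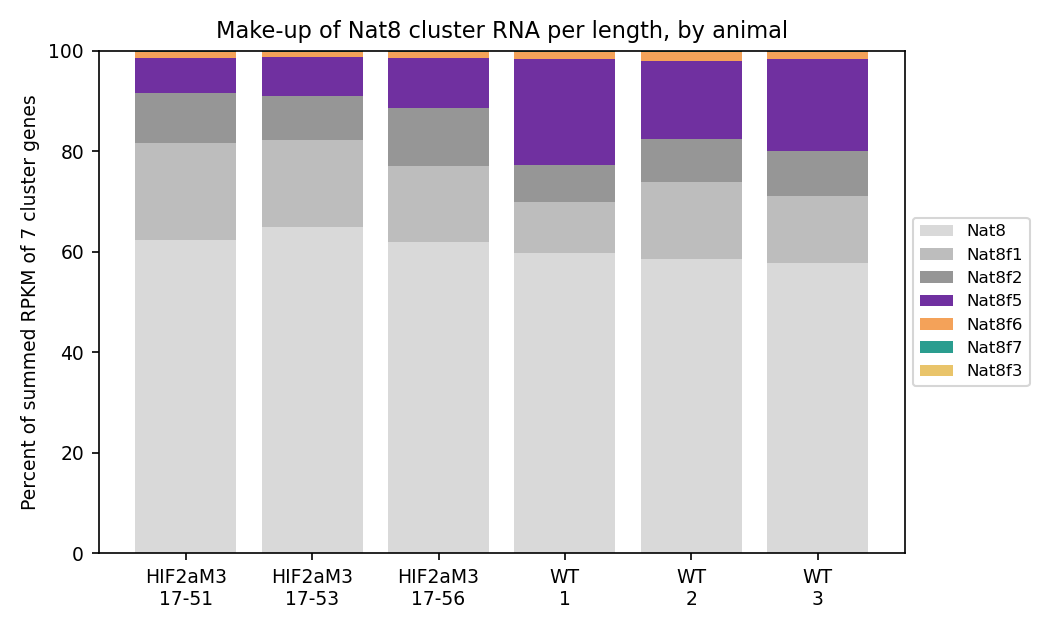
Share (percent) of the summed RPKM of the 7 chosen Nat8 cluster genes that each gene held, 1 bar per animal, the HIF2aM3 animals left of the WT animals. Nat8f5 (purple) holds 6.80% to 9.86% in HIF2aM3 and 15.6% to 21.1% in WT animals, and Nat8f7 and Nat8f3 are too small to see.

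The make-up of cluster RNA differed accordingly. The summed RPKM of Nat8, Nat8f1, Nat8f2, Nat8f3, Nat8f5, Nat8f6 and Nat8f7 was 217.7 ± 1.83 in HIF2aM3 and 298.6 ± 19.7 in WT animals (SD, n = 3 each). Nat8f5 held 8.10 ± 1.58% of it in HIF2aM3 and 18.3 ± 2.74% in WT animals, and these shares did not overlap. Nat8 held 63.1 ± 1.58% in HIF2aM3 and 58.7 ± 1.07% in WT animals, so the share of the leading enzyme was the larger in HIF2aM3 animals while its level was the smaller. Nat8f1 held 17.2 ± 2.13% in HIF2aM3 and 12.9 ± 2.71% in WT animals (SD, n = 3 each), with overlap.

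The 2 kidneys of an animal give a comparison that did not enter the choice of genes. The labels do not say which side each number stands for. In the fit blocked by animal, 17 of 18164 genes (0.0936%) differed between kidney 2 and kidney 1 over all genes, and 1556 had an unadjusted p under 0.05. The 17 became 4 without WT 1 and 77 without WT 2. None of the 10 genes passed the threshold in edgeR or in DESeq2 (which called 59 genes, 0.325%), and 2 had an unadjusted p under 0.05. These were Nat8 with a log2 ratio of -0.08 ± 0.03 (SE, edgeR adjusted p = 0.462) and Nat8f1 with -0.09 ± 0.03 (edgeR adjusted p = 0.421), each lower in kidney 2 in 6 of 6 animals. Nat8f5 had a log2 ratio of -0.03 ± 0.05 and Acnat2 of 0.03 ± 0.05 (SE). Within genotypes, the SD of log2 CPM of Nat8f5 was 0.112 between kidneys of 1 animal and 0.291 between animals, so its spread was larger between animals. For Nat8 the same values were 0.068 and 0.096, for Acnat2 0.11 and 0.158, for Nat8f6 0.149 and 0.136, and for Acnat1 0.217 and 0.348. The scarce genes Nat8l, Nat8f3 and Nat8f7 had between-kidney SDs of 0.796, 0.466 and 0.411.

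**Figure D3:**
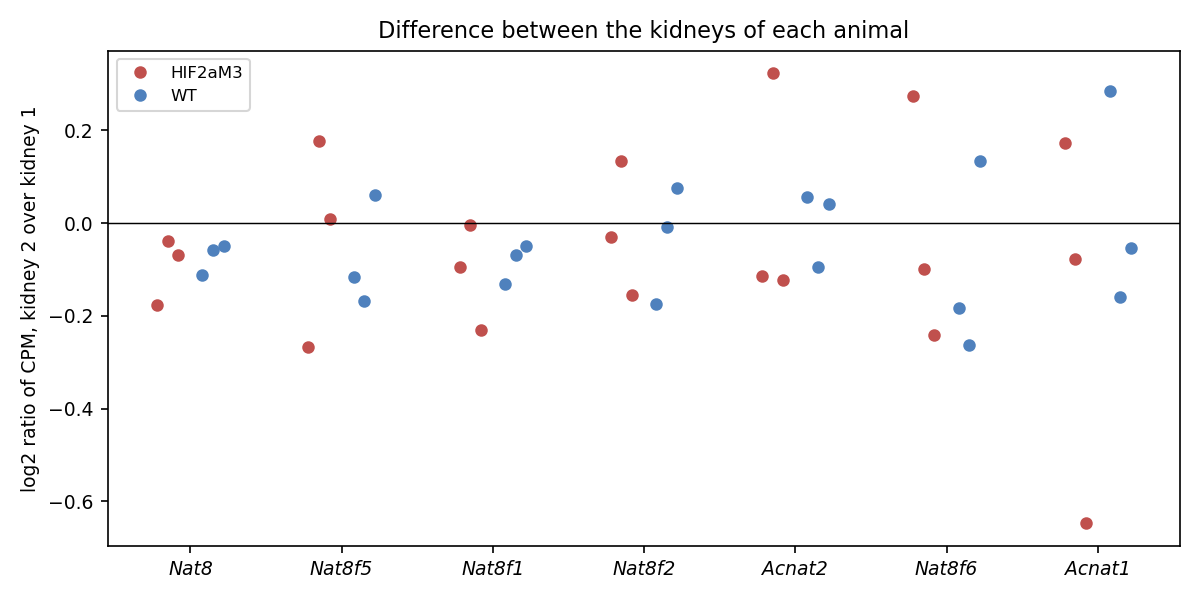
Log2 ratio of CPM in kidney 2 over kidney 1 for the 7 genes with the higher levels, 1 point per animal, HIF2aM3 left of WT. All 6 points of Nat8 and of Nat8f1 lie below 0, and those of the other genes fall on both sides.

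Along the chromosome the difference was not shared evenly. Next to the Nat8 cluster, of the tested neighbours Mir705, Smyd5, Pradc1, Cct7 and Alms1 on one side and Tprkb, Dusp11, Add2 and Tgfa on the other, Tprkb passed the threshold. Tprkb, a subunit of a tRNA-modifying complex, had 151.5 ± 2.13 CPM in HIF2aM3 and 125.1 ± 6.44 CPM in WT animals (SD, n = 3 each), a log2 fold change of 0.28 ± 0.06 (SE, edgeR adjusted p = 0.0432). It is the gene that overlaps Nat8f1 on the opposite strand, and its call was kept in 1 of the 6 fits that left out an animal, the fit without WT 2, with log2 fold changes from 0.24 to 0.31. Within the cluster, the pseudogenes Alms1-ps2 and Ptges3-ps had log2 fold changes of -1.32 ± 0.48 (edgeR adjusted p = 0.148) and -0.23 ± 0.09 (SE, edgeR adjusted p = 0.154), and 74.1% of the 50-base stretches of Alms1-ps2 and 431 of 431 of Ptges3-ps occur in other genes, so these values are uncertain. On one side of the Acnat pair, Plppr1, Gm12438 and Tmeff1 were the nearest tested genes, and Msantd3 was the 4th. Msantd3 was higher, at 6.29 ± 1.65 CPM in HIF2aM3 and 1.96 ± 0.429 CPM in WT animals (SD, n = 3 each). Its log2 fold change was 1.70 ± 0.24 (SE, edgeR adjusted p = 0.0236). Among the 6 fits that left out an animal, that call was kept in 2, those without HIF2aM3 17-51 and without WT 2, with log2 fold changes from 1.52 to 1.88. Baat, the nearest relative of the Acnat genes and next to them, had 1.27 ± 0.0770 CPM in HIF2aM3 and 0.886 ± 0.169 CPM in WT animals, a log2 fold change of 0.50 ± 0.19 (SE, edgeR adjusted p = 0.159). Plppr1, Gm12438, Tmeff1, Tex10, Mrpl50, Zfp189 and Tmem246 did not pass either.

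**Figure D4:**
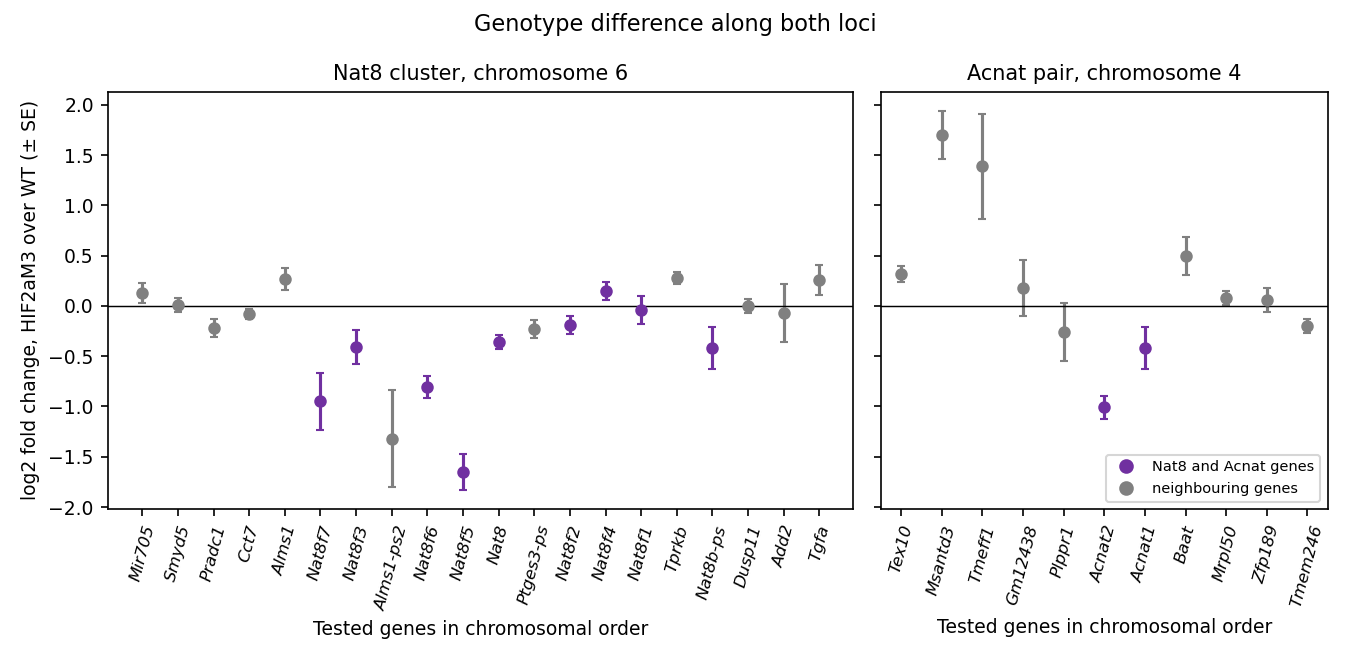
Log2 fold change (HIF2aM3 over WT) with its SE for tested genes in chromosomal order around the Nat8 cluster (left) and the Acnat pair (right), with Nat8 and Acnat genes in purple and neighbours in grey. Nat8f5 at -1.65 and Acnat2 at -1.01 are the lowest Nat8 and Acnat genes, and Msantd3 at 1.70 is the highest neighbour.

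Other genes of the same chemistry were looked at as 7 lists, in which 6 of 126 genes tested passed the threshold (4.76%, against 3.75% of all genes). In edgeR, 43 of the 126 had an unadjusted p under 0.05, as had 4876 of all 19564 genes tested. The latter is the background for such counts per list below. DESeq2 called more, 24 of the 126 and 2058 of all genes (19%, against 10.5%). Of 19 genes of the mercapturic acid route, from Ggt1 and Dpep1 to the deacetylase Acy1, 1 was lower, 0 were higher and 18 did not pass (4 passed in DESeq2), with a median log2 fold change of 0.03. The gene that fell was Slc22a6, the basolateral organic anion transporter, at 1176 ± 39.9 CPM in HIF2aM3 and 1666 ± 226 CPM in WT animals (SD, n = 3 each), a log2 fold change of -0.50 ± 0.11 (SE, edgeR adjusted p = 0.0483). Of 26 tested genes of glutathione synthesis and glutathione transferases, none passed in edgeR (4 had an unadjusted p under 0.05 and 1 passed in DESeq2), and their median was -0.04. Gstm4, a glutathione transferase and the nearest to passing, had 9.42 ± 0.133 CPM in HIF2aM3 and 11.2 ± 0.311 CPM in WT animals (edgeR adjusted p = 0.0770).

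Of 19 tested genes of amino acid conjugation and acyl-CoA thioesters, 1 was higher, 1 was lower and 17 did not pass (5 passed in DESeq2), with a median of -0.01. Pm20d1, which makes and splits N-acyl amino acids, rose to 93.6 ± 19.5 CPM in HIF2aM3, against 53.3 ± 3.01 CPM in WT animals (log2 fold change 0.81 ± 0.15, SE, edgeR adjusted p = 0.0397). Acot3, a peroxisomal acyl-CoA thioesterase, fell to 7.23 ± 0.682 CPM in HIF2aM3, against 10.4 ± 0.328 CPM in WT animals (-0.53 ± 0.09, SE, edgeR adjusted p = 0.0306), and 19.1% of its 50-base stretches occur in other genes. Of 9 genes of taurine supply, the transporter Slc6a6 rose to 670.5 ± 34.2 CPM in HIF2aM3, against 448 ± 11.3 CPM in WT animals (0.58 ± 0.06, SE, edgeR adjusted p = 0.0128), and the other 8 did not pass (list median -0.08; 4 of the 9 passed in DESeq2).

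Of 9 genes of N-acetylaspartate metabolism, Got1, the cytosolic aspartate aminotransferase, fell to 116 ± 2.26 CPM in HIF2aM3, against 138 ± 2.84 CPM in WT animals (-0.25 ± 0.05, SE, edgeR adjusted p = 0.0416), and 8 did not pass (list median -0.13; 4 of the 9 passed in DESeq2). Of 22 tested acetyltransferase genes outside the Nat8 family, Nags, the N-acetylglutamate synthase, fell to 0.502 ± 0.0902 CPM in HIF2aM3, against 1.21 ± 0.0283 CPM in WT animals (-1.24 ± 0.19, SE, edgeR adjusted p = 0.0265), and 21 did not pass (list median -0.04; 3 of the 22 passed in DESeq2). Nags overlaps a gene on the opposite strand over 15.6% of its exon bases. None of 22 peroxisome genes passed in edgeR (6 had an unadjusted p under 0.05 and 3 passed in DESeq2), with a median of -0.09, Pxmp4, a peroxisomal membrane protein gene, coming nearest at 105 ± 7.59 CPM in HIF2aM3 and 142 ± 17.5 CPM in WT animals (-0.44 ± 0.10, SE, edgeR adjusted p = 0.0552). With 5 animals in place of 6, calls were lost while the differences kept their direction. Slc6a6 kept its call in 4 of the 6 fits without 1 animal, losing it without HIF2aM3 17-51 or 17-53, with log2 fold changes from 0.53 to 0.61. Slc22a6, Acot3, Got1 and Nags kept theirs without WT 2, and Pm20d1 kept its without HIF2aM3 17-56, each in 1 of 6 fits. Over these fits the log2 fold change ran from -0.62 to -0.44 for Slc22a6, from -0.59 to -0.45 for Acot3, from -0.27 to -0.24 for Got1, from -1.43 to -1.14 for Nags and from 0.68 to 0.97 for Pm20d1. Slc22a6 also lost its call without the shallow library.

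The 20 proximal tubule markers, genes of the cells in which the Nat8 and Acnat genes are known to be active, summed to 20920 to 22680 CPM in HIF2aM3 and 21660 to 24060 CPM in WT animals, with overlap, and had a median log2 fold change of 0.02. Of these markers 1 was higher (Slc5a12, a lactate transporter, 0.49 ± 0.10, SE, edgeR adjusted p = 0.0483), 1 was lower (Slc22a6, above) and 18 did not pass. This list had the highest sum of the 6 marker lists in every animal. Collecting duct markers summed to 533 to 676 CPM in HIF2aM3 and 767 to 794 CPM in WT animals, 2 of 9 being lower, Foxi1 (-1.01 ± 0.19, SE, edgeR adjusted p = 0.0432) and Aqp3 (-0.30 ± 0.06, SE, edgeR adjusted p = 0.0453). Leukocyte and fibroblast markers summed to 233 to 329 CPM in HIF2aM3 and 128 to 222 CPM in WT animals, with Csf1r, a macrophage receptor, higher (0.58 ± 0.10, SE, edgeR adjusted p = 0.0349) and 9 of 10 not past the threshold. Glomerulus and endothelium markers summed to 907 to 941 CPM in HIF2aM3 and 707 to 986 CPM in WT animals, with the endothelial genes Kdr (0.70 ± 0.12, SE, edgeR adjusted p = 0.0302) and Emcn (0.57 ± 0.12, SE, edgeR adjusted p = 0.0458) higher among 10. Loop and distal tubule markers summed to 4221 to 4534 CPM in HIF2aM3 and 4504 to 5687 CPM in WT animals, and none of 9 passed in edgeR (3 had an unadjusted p under 0.05 and 1 passed in DESeq2), Umod coming nearest (-0.52 ± 0.11, SE, edgeR adjusted p = 0.0512). Liver markers, from another organ that expresses these families, summed to 76.8 to 108.5 CPM in HIF2aM3 and 85.0 to 114 CPM in WT animals, with Apoh lower (-0.57 ± 0.07, SE, edgeR adjusted p = 0.0167) among 9 tested. Csf1r and Umod overlap genes on the opposite strand over 15.1% and 19.5% of their exon bases. DESeq2 called 5 of 20 proximal tubule, 5 of 9 collecting duct and 5 of 10 glomerulus and endothelium markers. It called 2 of 10 leukocyte and fibroblast and 2 of 9 liver markers tested. Over all genes tested, DESeq2 called 10.5% and edgeR 3.75%. The median log2 fold change was -0.29 for collecting duct, -0.26 for loop and distal tubule and 0.22 for glomerulus and endothelium markers. For leukocyte and fibroblast markers it was 0.52 and for liver markers -0.01. Sums of collecting duct markers and of leukocyte and fibroblast markers did not overlap between the genotypes, while those of the other lists did. No marker of the 6 lists was at 0 in all libraries. Apoh kept its call in 4 of the 6 fits without 1 animal (all but those without HIF2aM3 17-51 or 17-53) and Csf1r in 2 (without WT 2 or WT 3). Foxi1, Kdr, Emcn and Slc5a12 kept theirs in 1 (without WT 2), and Aqp3 in 0, and all of these markers kept their direction. Aqp3 and Slc5a12 also lost theirs without the shallow library. The part of these marker differences in the values of the Nat8 and Acnat genes was not tested.

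Genes whose log2 CPM ran most like that of a member over the 12 libraries, among 10178 genes with a mean of at least 10 CPM, are given as a description, since libraries share genotype, animal and depth. For Nat8f5 they were Msrb1, Ppp2r5b and Tmem14c (Pearson r of 0.979, 0.979 and 0.978). For Acnat2 they were Slc39a5 (0.985), Miga2 (0.979) and St6galnac2 (0.973), for Nat8f6 Eci1 (0.965), Acadvl (0.962) and Hes6 (0.952), and for Nat8 Mboat7 (0.985), Eno1 (0.981) and Apba3 (0.976). Eci1 and Acadvl encode enzymes of mitochondrial fatty acid oxidation. With the mean of each genotype taken away, so that only differences among libraries of 1 genotype counted, the closest were Lpar2 for Nat8f5 (0.944), Ppara, the nuclear receptor of fatty acid catabolism, for Acnat2 (0.907), Gm5641 for Nat8f6 (0.904) and Mboat7 for Nat8 (0.949). Mboat7 was thus the 1 gene closest to a member by both measures. After the same removal, the r with Nat8 was 0.546 for Nat8f5, 0.382 for Acnat2 and 0.041 for Nat8f6. Of the other members, Nat8f3 had an r of 0.388, Nat8l (0 reads in the shallow library) of 0.381 and Nat8f7 of -0.011. Nat8f2, Acnat1 and Nat8f1 had an r of -0.241, -0.258 and -0.29. Over all pairs of members, r ran from -0.85 (Nat8f1 with Nat8f5) to 0.769 (Nat8l with Nat8f3, both scarce). These values rest on 12 libraries of 6 animals and were not tested, so no shared or opposite course is read from them.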

How the data were processed

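RNA of male mouse outer kidney cortex was sequenced after Illumina TruSeq preparation, per the labels' protocols. The authors deposited unscaled read counts, 1 column per library. The deposited RPKM values carry about 1 read added to each count, as read from the values. The deposited log2 fold changes and q-values are the authors' own, per the file headers, and served for comparison only. The submitters' processing notes name mm9. An aligner, a counting program and an annotation were not named in the sources used here. Symbols and gene order came from GENCODE M21, and promoter windows from RefSeq on GRCm38.p6, so no gene coordinates of the counted features are given.

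Each animal's kidneys were added together, and genotypes were compared in edgeR 4.0.16 (R 4.3.3; quasi-likelihood, filterByExpr, TMM, robust, two-sided, Benjamini-Hochberg threshold 0.05). Kidneys were compared on 12 libraries with the animal as a block. SE was derived from the fold change and its F statistic. Alternatives were DESeq2 1.42.0, limma 3.58.1 on RPKM, other scalings and filters, 1 kidney alone, Nat8f5 with Nat8f6 summed, and leave-outs. The members and lists were chosen with earlier results of these data known. All 10 members were named, other Nat8 rows, up to 4 called genes (or the nearest) per list, the 5 nearest tested neighbours on each side (1 of them is not reported here) and the 3 most alike genes. Replicates of 1 genotype are separate animals per the labels. The lists hold other enzymes and markers named from textbook roles.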

Additional observations from a re-analysis of the deposited data

How the results depend on the processing

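With all animals, 733 genes passed the genotype threshold in edgeR. The count was 4829 with 12 libraries as replicates, 2058 in DESeq2, 337 with kidney 2 alone, and 189, 145 and 74 in limma on RPKM with pseudocounts of 0.1, 1 and 5 (172 with pseudocount 1 and a mean of at least 1 RPKM), and from 11 to 1549 when 1 animal was left out. With library size alone, 376 genes were higher and 249 lower, against 377 and 356 with TMM. Of the 4 members past the threshold, the count was 2 in each of the 4 limma fits and from 0 to 4 when 1 animal was left out. Nat8f5 stayed past the threshold in 18 of 20 alternatives (log2 fold change -1.79 to -1.40), Acnat2 in 19 of 20 (-1.13 to -0.71), Nat8f6 in 12 of 19 (-0.90 to -0.30) and Nat8 in 9 of 20 (-0.41 to -0.30). Members were picked with this comparison known, and the alternatives reuse the same animals. The fit with 12 libraries as replicates also counts both kidneys of an animal. Nothing is therefore read from how many alternatives passed. The log2 fold change of Nat8f1 ran from -0.157 to 0.065 when 1 animal was left out.

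For kidney 2 against kidney 1, 17 genes passed in edgeR, 0 without the animal block (188 at an unadjusted p under 0.05), 59 in DESeq2, 7 with library size alone, 62 with no count filter and from 4 to 77 when 1 animal was left out. Small log2 ratios changed sign. Nat8l was at -0.061 in DESeq2, and Nat8f2 and Nat8f5 were at 0.008 and 0.001 with library size alone. When 1 animal was left out, Nat8l ran from -0.032 to 0.306, Nat8f2 from -0.055 to 0.012, Nat8f5 from -0.067 to 0.010, Acnat1 from -0.165 to 0.006 and Acnat2 from -0.032 to 0.060. The causes were not tested. No paired analysis of the genotypes was possible because they share no replicate numbers. Depth limits Nat8l, Nat8f3 and Nat8f7, which had 1 to 48 reads per library where any were counted. Nat8f7 passed in 1 of 18 alternatives. The called list genes and neighbours stayed past the threshold in 7 (Aqp3 and Slc5a12) to 18 (Slc6a6) of at most 20 alternatives, and none changed direction.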
